A study of Homo sapiens with 4 samples.

Results

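The HOX genes of HCEC 1CT, a human line labelled as colonic epithelial, were followed in 4 single-cell RNA libraries. Members were the genes whose symbol is HOXA, HOXB, HOXC or HOXD followed by a number only, which gave 39 of the 33538 genes listed, 11 in the HOXA cluster, 10 in HOXB, 9 in HOXC and 9 in HOXD. In GRCh38 they lie on chromosome 7 (HOXA, minus strand) and at chr17:48528526-48728750 (HOXB, minus strand), chr12:53938831-54056030 (HOXC, plus strand) and chr2:176092721-176190907 (HOXD, plus strand). The line carried transcripts of 19 of the 39 genes at 1 count per 1000000 UMIs (CPM) or more in every library. They ran from HOXB2 to HOXB7, over most of HOXA up to HOXA11 and from HOXC6 to HOXC11, with HOXD8 alone in the HOXD cluster, while all paralogs of number 13 stayed under 1 CPM. The order of levels was nearly the same whatever the shRNA or the day. In the shAPC libraries HOXA4, HOXB2 to HOXB5 and HOXC9 stood higher than in shScr at both days, also when read against the median of all genes.

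HOX genes encode homeodomain transcription factors that give cells along the head to tail axis their position. In each cluster the genes lie in the order in which they are used, from low paralog numbers at the anterior end to high numbers at the posterior end, and genes of the same number in different clusters descend from a common ancestor. Cells of adult tissues, and mesenchymal cells in particular, keep a HOX pattern that depends on the site from which they were taken. The Polycomb and trithorax groups of chromatin proteins hold the clusters off or on, and proteins of the PBX and MEIS families bind DNA together with HOX proteins.

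HCEC 1CT is described as human colonic epithelial cells immortalised with TERT and CDK4, so that all 4 groups carried both genes. Cells had been transduced with a scrambled shRNA (shScr) or an shRNA against APC (shAPC), the scaffold of the complex that degrades β-catenin, kept in puromycin and harvested after 3 or 7 days. Each shRNA was paired with each day, which made 4 groups of 1 library each, so no difference given here has a replicate check and no test between groups was run. A single shRNA against APC was used in a single line.

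UMIs, each a captured 3′ end of a distinct RNA molecule, were summed per library after barcodes had been dropped that held fewer than 200 genes or 500 UMIs or a mitochondrial share of 5% or more. This kept 788 to 2600 cells and 28451455 to 39797418 UMIs per library. Kept cells of shScr day 7 had a median of 1330 UMIs, against 21029.5 to 49685.5 in the other libraries. APC itself was at 16.1 and 19.1 CPM in shScr and at 5.52 and 6.61 CPM in shAPC (day 3 and day 7), in the direction of the labels. The version of the counting software coincided with the shRNA, and the part of either in a shAPC/shScr difference cannot be told apart. Both day 3 libraries shared 19 kept barcodes and the other 5 pairs shared 1 to 7. Without shared barcodes the 4 ratios of summed HOX UMIs stayed within their counting intervals, and 0 HOX genes of at least 5 CPM were past 2-fold in each comparison, as with them. The counts of intervals above the all-gene median given below were the same without them, except 6 of 16 in place of 5 of 15 at day 3.

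Markers went only in part with the labelled tissue. Of 15 markers of colonic epithelium, 4 reached 1 CPM in every library, namely KRT8, KRT18, KRT19 and CLDN7, and CDX2, KRT20, MUC2 and CEACAM5 had no UMI in any. EPCAM, the surface marker of most epithelia, lay at 0 to 0.0703 CPM. All 15 markers of mesenchyme or fibroblasts were at 1 CPM or more in all 4 libraries, with summed levels of 6344 to 8512 CPM against 25.1 to 49.5 CPM for the epithelial list. Markers of mesothelium, endothelium and blood summed to at most 1.32 CPM per list. The label of colonic epithelium was thus not borne out by its defining markers, and the cells are called by the name of the line.

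Summed over the 39 genes, HOX transcripts made up 186 CPM (182 to 190) in shScr day 3, 250 CPM (244 to 255) in shAPC day 3, 197 CPM (192 to 201) in shScr day 7 and 238 CPM (233 to 244) in shAPC day 7, with exact Poisson 95% intervals that, like all intervals here, cover counting error only. Levels of both shAPC libraries lay above those of both shScr libraries, by totals. With TMM scaling, which sets the bulk of genes equal, the day 3 log2 difference was 0.04 in place of 0.42. The HOXB cluster held 45.02% to 49.6% of HOX UMIs, HOXA 26.96% to 30.3%, HOXC 18.3% to 19.8% and HOXD 4.70% to 6.94%. A set of 16 genes, those of at least 5 CPM in at least 1 library, held 92.7% to 93.4% of HOX UMIs. HOXA4 was just inside that limit, with a highest level of 5.13 CPM, and HOXA5 just outside, with 3.34 CPM. CPM are not divided by gene length, since each molecule is counted at its 3′ end, but capture can still differ between genes.

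**Figure D1:**
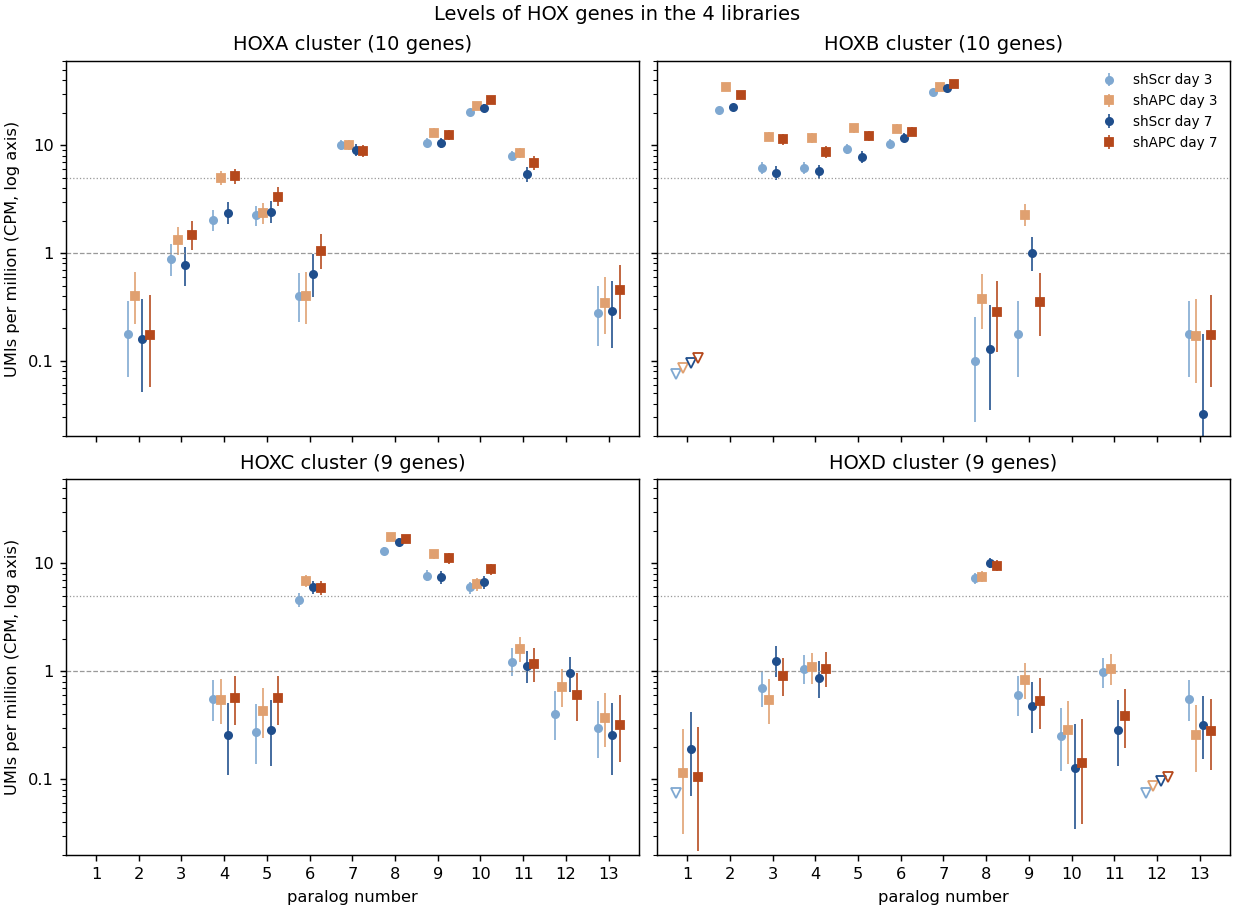
Levels of the HOX genes reported, in CPM on a log axis against the paralog number, in a panel per cluster. Points are the 4 libraries, bars are exact Poisson 95% intervals (some run below the axis), open triangles mark genes with 0 UMIs at the limit that 3 counts allow, and broken and dotted lines mark 1 and 5 CPM. HOXB2 to HOXB7 stand above 5 CPM in all 4 libraries and HOXD8 is the only HOXD gene to do so.

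HOXB7 and HOXB2 led the HOXB cluster and the whole family. HOXB7 stood at 31.0 CPM (29.3 to 32.8) in shScr day 3, 34.2 (32.3 to 36.2) in shAPC day 3, 34.1 (32.1 to 36.2) in shScr day 7 and 36.4 (34.3 to 38.7) in shAPC day 7. HOXB2, a factor of hindbrain patterning, stood at 21.1 (19.7 to 22.6), 34.7 (32.7 to 36.7), 22.4 (20.8 to 24.2) and 29.1 (27.2 to 31.2) CPM in that order of libraries, which is used throughout. Both shAPC libraries lay above both shScr libraries for HOXB2, whereas the 4 levels of HOXB7 were within 1.18-fold of each other. Between them lay HOXB6 at 10.3, 14.2, 11.8 and 13.4 CPM and HOXB5 at 9.20, 14.3, 7.81 and 12.1 CPM. HOXB3 was at 6.11, 12.0, 5.51 and 11.3 CPM and HOXB4, known for its action in blood stem cells, at 6.16, 11.6, 5.70 and 8.58 CPM. The run ended sharply. HOXB8, the next gene, had 4 to 13 UMIs per library, HOXB13 had 1 to 7 and HOXB1, the hindbrain gene at the anterior end, had 0 in every library, which allows up to 0.0754 to 0.105 CPM. HOXB9 differed between libraries and is described below.

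In the HOXA cluster the highest member was HOXA10, a factor of the posterior trunk and the uterus, at 20.2 (18.8 to 21.6), 23.2 (21.6 to 24.8), 22.1 (20.5 to 23.8) and 26.1 (24.3 to 28.1) CPM. HOXA9, a partner in leukaemia gene fusions, followed at 10.5, 13.0, 10.5 and 12.5 CPM and HOXA7 at 10.0, 10.0, 9.03 and 8.89 CPM. HOXA11, which with HOXA10 acts in the limb and the reproductive tract, was at 7.92 (7.07 to 8.84), 8.47 (7.53 to 9.49), 5.35 (4.57 to 6.22) and 6.85 (5.93 to 7.89) CPM. HOXA4 stood at 2.01 (1.59 to 2.50), 4.95 (4.24 to 5.75), 2.37 (1.86 to 2.97) and 5.13 (4.33 to 6.03) CPM, so that its intervals in shAPC and shScr did not overlap at either day. HOXA5 was on at 2.24 to 3.34 CPM. HOXA2 and HOXA13 stayed under 1 CPM everywhere, and HOXA3 and HOXA6 crossed 1 CPM between libraries. HOXA13, the gene of the hindgut end and the digits, had 9 to 13 UMIs per library beside 167 to 315 for its neighbour HOXA11.

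HOXC8 was the highest HOXC member, at 13.0 (11.9 to 14.2), 17.6 (16.2 to 19.0), 15.9 (14.5 to 17.3) and 16.8 (15.3 to 18.4) CPM. HOXC9, a factor of thoracic identity, was at 7.71, 12.2, 7.43 and 11.1 CPM, HOXC6 at 4.57, 6.90, 5.99 and 5.90 CPM and HOXC10, a factor of lumbar identity, at 5.98, 6.41, 6.72 and 8.79 CPM. Both shAPC libraries exceeded both shScr libraries for HOXC9 but not for HOXC6. HOXC11 closed the run at 1.12 to 1.60 CPM, and HOXC4, HOXC5, HOXC12 and HOXC13 stayed under 1 CPM in all 4 libraries. In the HOXD cluster HOXD8 alone was on, at 7.29 (6.47 to 8.18), 7.55 (6.67 to 8.52), 10.1 (9.03 to 11.3) and 9.56 (8.46 to 10.8) CPM. Its neighbours HOXD9 and HOXD4 were at 0.480 to 1.09 CPM. HOXD12, a gene of the limb end, had 0 UMIs in all 4 libraries and HOXD13 had 8 to 22. In all, 14 members stayed under 1 CPM in every library, and 6 lay under it in some libraries and over it in others, HOXA3, HOXA6, HOXB9, HOXD3, HOXD4 and HOXD11, none above 2.26 CPM. Of the paralogs of number 13, the most posterior of the family, the highest level in any library was 0.553 CPM, that of HOXD13 in shScr day 3.

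Exons of several neighbours overlap on the same strand, so a read there could come from either gene. How such reads were counted was not checked. The shared part was 16.6% of the exonic bases of HOXB6 and 6.42% of HOXB3, 17.5% of HOXC4 and 16.1% of HOXC6, and 21.4% of HOXD11 and 18.2% of HOXD10. It was 37.9% for HOXC5, with the clone-named gene AC012531.3, and 13.1% for HOXA9 and 9.93% for HOXA10, with AC004080.3. It was 7.00% for HOXC10, 4.38% for HOXC9 and 2.20% for HOXB4. Of the HOXB run, HOXB2, HOXB5 and HOXB7 shared none.

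Promoter windows of members of the same cluster on opposite sides of the 1 CPM limit are shown to set the letters beside the levels. They come from a table of RefSeq windows (GRCh38.p14) of 300 bases, 250 before and 50 after the start, in which 20 of the 39 genes were matched. No HOXB or HOXC gene that was on in all libraries was among the 20. HOXA11 (chr7:27185183-27185482, minus strand) was on and its neighbour HOXA13 (chr7:27200042-27200341, minus strand) was not. HOXD8 (chr2:176129455-176129754, plus strand) was on and HOXD12, which lies beyond HOXD9, HOXD10 and HOXD11 (chr2:176099545-176099844, plus strand) had no UMI. Capitals mark every CG.
HOXA11: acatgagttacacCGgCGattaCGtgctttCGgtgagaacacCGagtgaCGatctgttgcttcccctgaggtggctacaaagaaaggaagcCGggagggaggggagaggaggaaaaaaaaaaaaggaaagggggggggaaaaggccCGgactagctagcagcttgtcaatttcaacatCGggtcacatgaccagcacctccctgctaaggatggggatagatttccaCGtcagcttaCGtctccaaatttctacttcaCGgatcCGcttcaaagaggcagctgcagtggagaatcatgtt
HOXA13: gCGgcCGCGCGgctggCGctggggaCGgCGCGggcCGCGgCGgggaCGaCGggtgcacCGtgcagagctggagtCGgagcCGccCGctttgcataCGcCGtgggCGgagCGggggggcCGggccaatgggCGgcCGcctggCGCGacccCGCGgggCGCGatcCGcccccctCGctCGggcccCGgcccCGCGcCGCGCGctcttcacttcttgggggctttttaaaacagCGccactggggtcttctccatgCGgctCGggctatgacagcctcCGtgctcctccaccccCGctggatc
HOXD8: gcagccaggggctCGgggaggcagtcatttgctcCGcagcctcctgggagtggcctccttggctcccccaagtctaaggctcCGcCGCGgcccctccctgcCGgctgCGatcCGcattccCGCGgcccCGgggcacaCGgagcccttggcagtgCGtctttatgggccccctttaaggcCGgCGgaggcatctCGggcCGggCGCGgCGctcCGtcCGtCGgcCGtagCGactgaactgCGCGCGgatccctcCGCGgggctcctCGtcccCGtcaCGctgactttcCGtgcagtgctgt
HOXD12: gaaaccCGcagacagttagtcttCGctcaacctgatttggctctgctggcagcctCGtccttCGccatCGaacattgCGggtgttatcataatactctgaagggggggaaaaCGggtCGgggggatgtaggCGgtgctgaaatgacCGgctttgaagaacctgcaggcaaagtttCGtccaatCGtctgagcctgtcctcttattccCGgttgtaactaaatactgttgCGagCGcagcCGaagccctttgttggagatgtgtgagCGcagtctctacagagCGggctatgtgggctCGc

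HOXA11 had 13 CG in its window and HOXA13 had 44, a number reached by 4.19% of 35116 windows over all genes. HOXD8 had 34, reached by 15.6%, and HOXD12 had 19, reached by 42.9%. So the gene that was off had more CG in the HOXA pair and fewer in the HOXD pair. Taking the mean over windows of a gene with several, the median was 25 CG for the 6 matched genes on in all libraries and 19 for the 9 matched genes under 1 CPM in all, with ranges of 13 to 34 and 11 to 44. HOXC4 and HOXC5, both among the 9, have the same window of 15 CG, which was thus counted for each. All windows had a median of 14. The ranges overlapped, and a CG count in this window says nothing of the methylation of the DNA.

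The order of levels was stable. HOXA10 was the third highest and HOXC8 the fourth highest HOX gene in every library, and HOXB7 and HOXB2 held the first 2 places. Over the 39 genes Spearman's rho between libraries ran from 0.95 to 0.967 for the 6 pairs, and over the 16 genes of at least 5 CPM from 0.806 to 0.938. These are descriptions across genes of the same line, with differences between genes that all libraries share, and carry no p-value. Among the 16 genes the largest ratio of highest to lowest library was 2.55, for HOXA4, followed by 2.17 for HOXB3 and 2.04 for HOXB4. By contrast HOXA7 varied 1.13-fold and HOXB7 1.18-fold. In shScr day 3 the levels of HOXB2 and HOXA10, 21.1 and 20.2 CPM, had overlapping intervals, as did those of HOXA9, HOXB6 and HOXA7, so that their order there was not resolved.

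Whether silencing APC went with a change of the HOX pattern was asked at each day by the shAPC/shScr ratio. At day 3, 0 of the 15 HOX genes of at least 5 CPM in either library were past 2-fold (of CPM + 1), where 4.14% of 9680 genes were (3.82% higher in shAPC and 0.32% lower). At day 7, 0 of 16 were, where 2.2% of 9289 genes were (0.958% higher and 1.24% lower). The summed HOX level was higher in shAPC by a log2 ratio of 0.42 (0.38 to 0.47) at day 3 and 0.28 (0.23 to 0.33) at day 7, where intervals of ratios are exact conditional binomial 95% intervals. Over all genes tested the median log2 ratio was 0.33 at day 3 and -0.04 at day 7, so ratios below are also given relative to this all-gene median. The HOX genes tested had medians of 0.44 and 0.31. In that form the sum was 0.10 higher at day 3 and 0.32 higher at day 7, and the HOXB sum 0.23 and 0.38 higher. The HOXD sum was 0.29 lower at day 3 and 0.03 lower at day 7.

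The anterior side of the HOXB run and HOXA4 carried the higher ratios. HOXB3 had a log2 ratio of 0.97 (0.74 to 1.20) at day 3 and 1.04 (0.77 to 1.31) at day 7. HOXB4 had 0.92 (0.69 to 1.15) and 0.59 (0.30 to 0.88), and HOXB5 had 0.63 (0.44 to 0.83) and 0.63 (0.39 to 0.88). Towards the posterior end the ratios were smaller, with 0.46 and 0.18 for HOXB6 and 0.14 and 0.10 for HOXB7. HOXB2, at the anterior end, broke this order with 0.72 (0.59 to 0.85) and 0.38 (0.23 to 0.52). HOXA4, under the 5 CPM limit at day 3 and over it at day 7, had 1.30 (0.91 to 1.70) and 1.11 (0.70 to 1.54). In ratio terms without the added 1 CPM it was 2.46-fold and 2.17-fold higher in shAPC, and HOXB3 was 1.96-fold and 2.06-fold higher. HOXA5, next to HOXA4 and under 5 CPM at both days, had log2 ratios of 0.07 (-0.38 to 0.52) and 0.48 (0.02 to 0.93). HOXC9 had 0.66 (0.44 to 0.87) and 0.58 (0.33 to 0.83), while its neighbours HOXC8 and HOXC10 had 0.44 and 0.08, and 0.10 and 0.39.

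**Figure D2:**
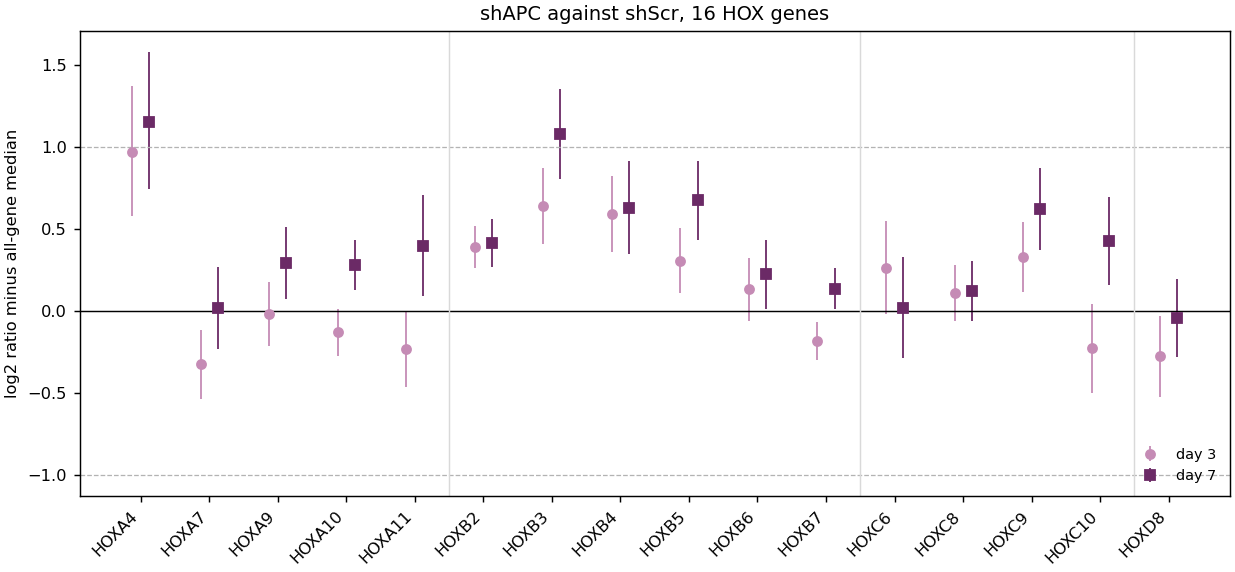
Log2 shAPC/shScr ratio of the 16 HOX genes of at least 5 CPM in 1 library, minus the median over all genes tested, at day 3 and day 7, with exact conditional binomial 95% intervals. The solid line is the all-gene median, broken lines are 2-fold from it and vertical lines part the clusters. HOXB2 to HOXB5, HOXC9 and HOXA4 lie above the line at both days, and at day 3 HOXA7, HOXB7 and HOXD8 lie below it.

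Read against the all-gene median, at day 3 the interval lay above it for 5 of 15 HOX genes (HOXB2, HOXB3, HOXB4, HOXB5 and HOXC9) and below it for 3 (HOXA7, HOXB7 and HOXD8). Over all genes 31.6% lay above and 34.4% below, so the share above was near the background. At day 7 the interval lay above the median for 12 of 16 HOX genes and below it for 0, against 29.8% and 31.9% of all genes. As a mean over cells of CPM, 8 of 15 lay above, beside 37.7% of all genes, and HOXA9, HOXA11, HOXB7 and HOXC10 turned to -0.0523, -0.146, -0.0111 and -0.0655 relative to the median. Among genes of 5 to 50 CPM, a range that held every one of the 16, 33.0% lay above and 27.3% below at day 3, and 29.6% above and 25.7% below at day 7. The 4 not above at day 7 were HOXA7, HOXC6, HOXC8 and HOXD8. The 5 genes above at day 3 were also above at day 7, which makes 5 of the 15 tested at both days, where 12.0% of 9155 genes were above at both. Below it at both were 0 of the 15 and 18.3% of all genes. The day 3 and day 7 comparisons have no library in common. Marker lists moved as well, since at day 3 all 4 epithelial markers tested lay above the all-gene median, and 4 of 15 mesenchymal markers lay above it and 10 below. At day 7 they were 1 above and 2 below of 3, and 8 above and 4 below of 15. Their part in the HOX ratios was not tested.

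Cells with high ATF3, a stress-induced factor, moved with the day 3 count. They were 44 of 788 kept cells in shAPC day 3 and 1 of 1116 in shScr day 3. The limit of 100 ATF3 CPM per cell was set after the data had been seen. In a cell of fewer than 10000 UMIs, 1 ATF3 UMI passes this limit. Among cells of at least 10000 UMIs, 32 of 576 passed it in shAPC day 3 and 0 of 765 in shScr day 3. Without the kept cells of high ATF3, 8 of 16 HOX genes lay above the median at day 3, beside 28.4% of all genes, and HOXA4 was past 2-fold. Their part in the ratios of the other genes was not tested.

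The question of stability over time was asked within each shRNA. In shScr 0 of 15 HOX genes were past 2-fold between day 7 and day 3, where 0.986% of 9126 genes were (0.34% higher at day 7 and 0.647% lower), and in shAPC 0 of 16 were, where 5.12% of 9711 genes were (0.216% higher and 4.9% lower). The summed level differed by a log2 ratio of 0.08 (0.03 to 0.13) in shScr and -0.07 (-0.11 to -0.02) in shAPC. All genes had a median of 0.04 in shScr and -0.33 in shAPC, so in shAPC the HOX sum was 0.27 above that median. Scaling by TMM in place of the totals gave 0.24 for the shAPC sum, the opposite sign, and 0.26 relative to the median.

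**Figure D3:**
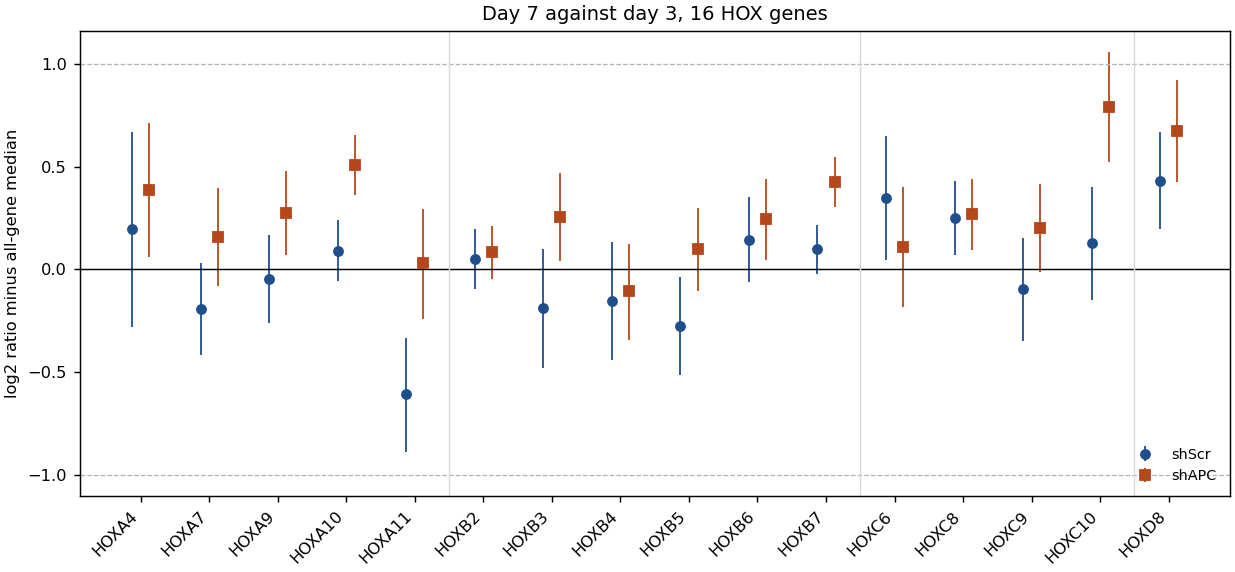
Log2 ratio of day 7 to day 3 for the 16 HOX genes in shScr and in shAPC, minus the median over all genes tested, with exact conditional binomial 95% intervals. The solid line is the all-gene median, broken lines are 2-fold from it and vertical lines part the clusters. HOXD8 lies above the line in both and HOXA11 below it in shScr.

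Among genes of at least 5 CPM, HOXA11 showed the largest difference over time in shScr. Its level was 0.57 lower at day 7 on the log2 scale (-0.85 to -0.29), with 167 UMIs against 315, and in shAPC it was 0.31 lower (-0.57 to -0.04). Relative to all genes these were -0.61 and 0.03. HOXD8 was higher at day 7 in both, by 0.47 (0.24 to 0.71) in shScr and 0.34 (0.09 to 0.59) in shAPC. HOXC10 was 0.46 higher (0.19 to 0.72) in shAPC and 0.17 (-0.11 to 0.44) in shScr. In shScr the interval lay above the all-gene median for HOXC6, HOXC8 and HOXD8 and below it for HOXA11 and HOXB5, which makes 3 and 2 of 15 beside 29.5% and 29.8% of all genes (24.9% and 27.2% of those of 5 to 50 CPM). In shAPC it lay above for 9 of 16 and below for 0, beside 32.1% and 31.9% (28.5% and 29.3%). Of the genes under 5 CPM, HOXD11 had 39 and 37 UMIs at day 3 (shScr and shAPC) and 9 and 11 at day 7. Its levels of 0.980, 1.06, 0.288 and 0.387 CPM parted by day and not by shRNA, and the intervals of day 3 and day 7 did not overlap in shScr or in shAPC. It was chosen for mention after its values were seen.

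In single cells HOX transcripts were sparse. After each cell was thinned to 10000 UMIs, which left out 212 to 1681 shallower cells per library, a HOX UMI was found in 81.2% of cells (78.2 to 83.9, exact binomial) in shScr day 3, 91.3% (88.7 to 93.5) in shAPC day 3, 82.9% (80.3 to 85.3) in shScr day 7 and 89.9% (87.7 to 91.7) in shAPC day 7. The median cell showed 2 of the 39 genes. Without thinning the shares were 76.8%, 81.7%, 47.5% and 73.8%, in the order of a median depth that was lowest in shScr day 7. A HOXB UMI was seen in 52.0%, 69.3%, 55.1% and 64.6% of thinned cells and a HOXD UMI in 9.67%, 11.3%, 11.8% and 12.6%. Free RNA gives UMIs to any cell, and no cell type that should lack HOX genes was at hand to measure it, so the shares count cells with a UMI and not cells that express a gene.

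For single genes the shares were compared with those of a Poisson law. HOXB7 was seen in 24.2%, 30.2%, 28.1% and 30.9% of thinned cells and HOXA4 in 2.61%, 5.21%, 2.61% and 5.29%. For the 16 genes in 4 libraries, the 64 shares differed from those of a Poisson law with the same mean by -1.84 to 0.79 percentage points, and 58 of them by less than 1 point. The ratio of variance to mean, 1 for a Poisson law, had a median of 1.07 and a range of 0.93 to 1.41, the highest for HOXC8 in shAPC day 3. At means this low a moderate spread of UMIs between cells changes the share little, so these shares say little of moderate differences between cells. UMIs held by few cells do lower the share. Without thinning, where depth also differs between cells, HOXB9 was seen in 3.55% of shAPC day 3 cells, against 9.54% by the Poisson law.

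**Figure D4:**
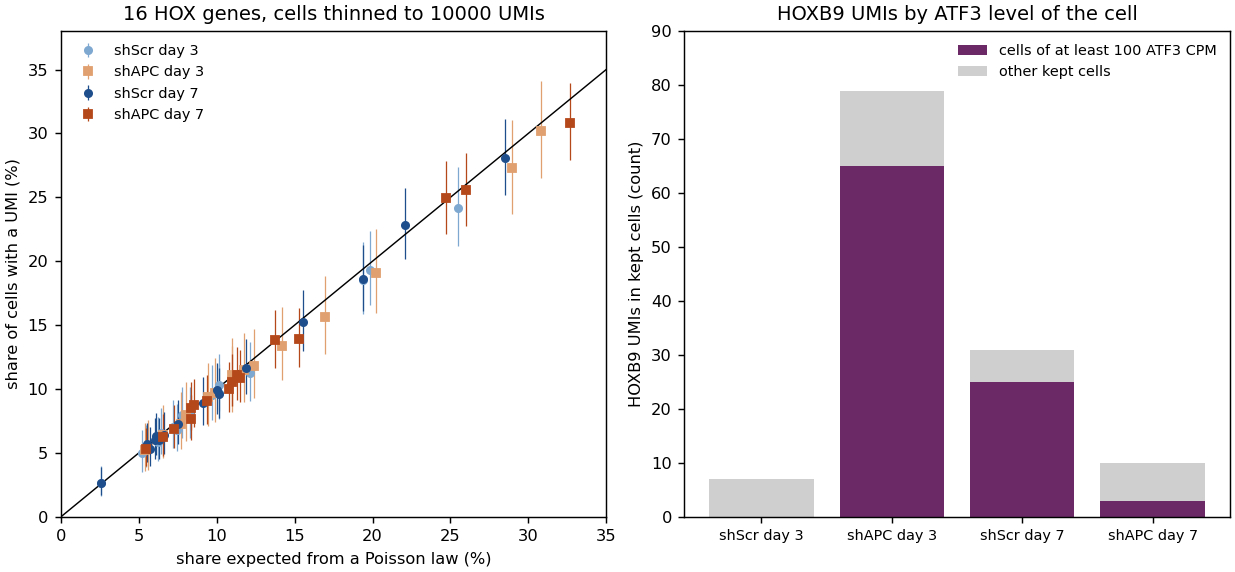
Left, share of cells with a UMI of each of the 16 HOX genes after thinning to 10000 UMIs, with exact binomial 95% intervals, against the share that a Poisson law with the same mean gives, the line marking equality. Right, HOXB9 UMIs per library in kept cells of at least 100 ATF3 CPM and in all other kept cells. The 64 shares lie within 1.84 points of the line, and 65 of 79 HOXB9 UMIs of shAPC day 3 lie in cells with high ATF3.

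Summed levels differed between some sets of cells within a library. Kept cells of under 2000 UMIs had 197, 208, 191 and 225 HOX CPM, each interval holding the value of the whole library. Barcodes removed for their mitochondrial share had 167 (156 to 179), 267 (254 to 281), 207 (199 to 215) and 247 (241 to 254) CPM, so the shAPC libraries also stood above the shScr libraries among cells that the filter left out. Among cells of at least 10000 UMIs, those with a UMI of the proliferation genes MKI67 or TOP2A had 203 (197 to 210), 270 (262 to 277), 213 (204 to 222) and 239 (229 to 250) HOX CPM. Those without had 174 (168 to 179), 228 (221 to 236), 187 (181 to 194) and 238 (231 to 245). The intervals did not overlap in 3 of the 4 libraries, and in shAPC day 7 they did.

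HOXB9 UMIs were concentrated in few cells. The gene had 7, 79, 31 and 10 UMIs, or 0.176 (0.0707 to 0.362), 2.26 (1.79 to 2.82), 0.993 (0.674 to 1.41) and 0.351 (0.169 to 0.646) CPM, the widest range of any member with UMIs in all 4 libraries at 12.9-fold. In shAPC day 3 the 79 UMIs came from 28 cells, and 3 of these gave 40 of them, with up to 20 in a single cell. Cells of at least 100 ATF3 CPM, 5.58% of that library's cells with 8.38% of its UMIs, held 65 of the 79. In shScr day 7 such cells were 1.42% of cells with 2.02% of UMIs and held 25 of 31, and in shAPC day 7 they held 3 of 10. These shares of cells include shallow ones, in which 1 ATF3 UMI passes the limit. Cells with high ATF3 and at least 10000 UMIs were 32 in shAPC day 3, 12 in shScr day 7 and 7 in shAPC day 7. Those deeper cells held 64, 25 and 2 HOXB9 UMIs. With limits of 50 and 200 ATF3 CPM, all kept cells past the limit held 67 and 65 of 79 in shAPC day 3, 28 and 20 of 31 in shScr day 7, and 6 and 3 of 10 in shAPC day 7. Relative to all genes HOXB9 was 3.36 higher in shAPC than in shScr at day 3 on the log2 scale and 1.46 lower at day 7. Without the ATF3 cells these were 1.03 higher (-0.37 to 2.58) and 0.38 higher (-1.42 to 2.23), so that neither interval excluded 0.

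The same cells also differed in other members in shAPC day 3, while in the day 7 libraries most intervals held both directions. In shAPC day 3, among cells of at least 10000 UMIs, the 32 with high ATF3 had 249 CPM of summed HOX UMIs and the 544 others 250. HOXA10 was at 8.66 CPM in them against 24.3, HOXC10 at 1.04 (3 UMIs) against 6.99 and HOXB5 at 6.92 against 15.1. HOXB4 was at 6.58 CPM against 12.3 and HOXB7 at 27.4 against 34.9. HOXC8 was at 24.9 CPM against 17.0 and HOXD8 at 11.8 against 7.28. HOXB2 was at 42.9 CPM against 34.1 and HOXA7 at 14.2 against 9.72. HOXB9 was at 22.2 CPM against 0.381. Median depth was 90936 UMIs in the 32 cells and 56484 in the 544 others. In shScr day 7, where 12 such cells were found, HOXA10 was at 13.3 CPM (8 UMIs) against 22.4, HOXC8 at 38.2 against 15.8 and HOXB9 at 41.5 against 0.212. HOXB2 was at 39.8 CPM against 21.9 there (log2 interval 0.21 to 1.45). HOXC10 was at 9.96 CPM (6 UMIs) against 6.58 there and HOXD8 at 4.98 CPM (3 UMIs) against 10.6. The log2 intervals of HOXA10 (-1.97 to 0.24), HOXC10 (-0.87 to 1.75) and HOXD8 (-3.37 to 0.47) gave no direction. In the 7 such cells of shAPC day 7, HOXA10 was at 32.0 CPM (8 UMIs) against 25.7 and HOXB5 at 16.02 (4 UMIs) against 11.6. HOXC8 was at 12.0 (3 UMIs) against 16.8. Their log2 intervals of -0.9 to 1.3, -1.42 to 1.84 and -2.77 to 1.07 gave no direction either. HOXD8 was higher there, as in shAPC day 3, at 28.0 CPM (7 UMIs) against 9.56 (log2 interval 0.22 to 2.62). HOXB9 was at 8.01 CPM (2 UMIs) against 0.258 there. HOXB2 was at 36.0 CPM (9 UMIs) against 28.8 there, with a log2 interval of -0.81 to 1.26. These are cells of single libraries, compared for their counts only, and doublets were not called.

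Noncoding RNAs of the clusters were measured beside the genes, 18 of the 20 listed. Of these 6 were at 1 CPM or more in all 4 libraries and PRAC1, PRAC2, HOXB-AS2 and HOXB-AS4 had no UMI in any. PRAC1 and PRAC2 lie next to HOXB13 and are known from prostate and distal colon. The highest was HOXD-AS2 at 34.1, 31.4, 35.2 and 29.1 CPM. HOTAIRM1, a noncoding RNA of the HOXA cluster, was at 25.4, 33.2, 24.1 and 27.1 CPM and HOXB-AS3 at 8.77, 14.8, 8.29 and 23.7 CPM. HOXB-AS3 lies within the HOXB run and, like HOXB2 to HOXB5, was higher in shAPC, with log2 ratios of 0.76 (0.56 to 0.96) at day 3 and 1.51 (1.31 to 1.73) at day 7. At day 3, 1 of the 6 tested lay above the all-gene median and 1 below, with 0 past 2-fold. At day 7, 4 lay above and 1 below, with 2 past 2-fold. Shares of all genes were 31.6% above and 34.4% below at day 3, and 29.8% and 31.9% at day 7. Past 2-fold were 4.14% of all genes at day 3 and 2.2% at day 7. How strand was used in the counting is not given in the sources used here. Whether RNA of a gene was kept apart from that of its antisense partner was not checked.

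**Figure D5:**
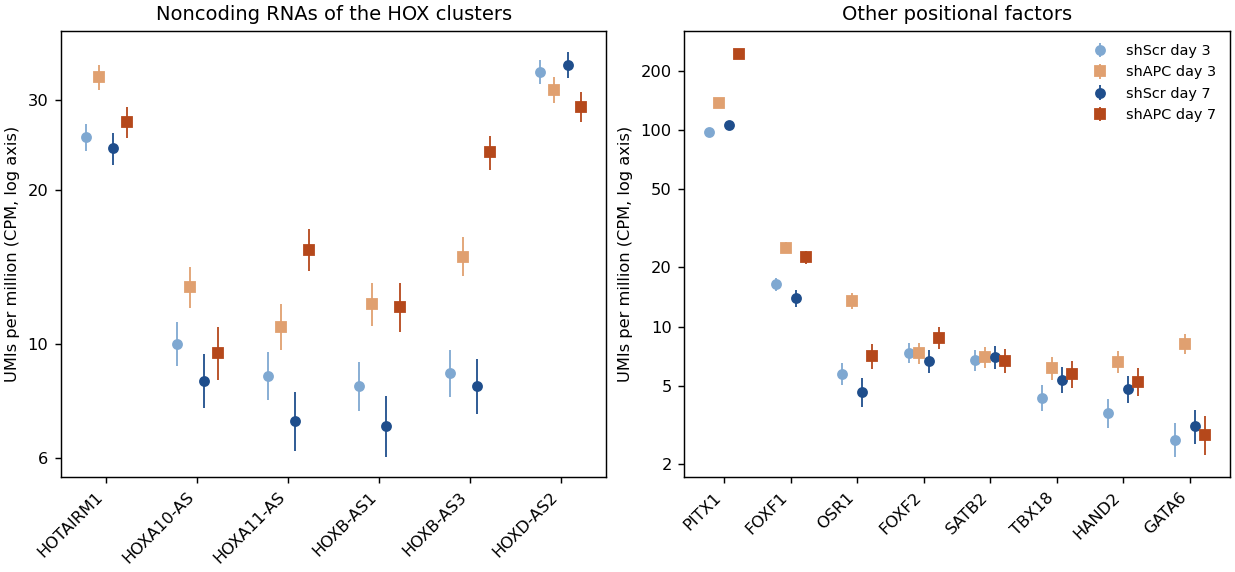
Levels in CPM on log axes of the 6 noncoding RNAs of the HOX clusters at 1 CPM or more in all libraries and of 8 other positional factors, with exact Poisson 95% intervals, for the 4 libraries. HOXB-AS3 and PITX1 are highest in shAPC day 7, at 23.7 and 244 CPM.

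Of 30 other positional factors, 10 were at 1 CPM or more in all 4 libraries and 9 had no UMI in any, CDX2, the factor that specifies intestinal epithelium, among them. The highest was PITX1, a factor of the hindlimb and pituitary, at 97.7, 138, 106 and 244 CPM. FOXF1, a factor of gut mesenchyme, was at 16.4, 25.2, 13.9 and 22.5 CPM and OSR1, a factor of intermediate mesoderm, at 5.75, 13.5, 4.64 and 7.06 CPM. Both shAPC libraries stood above both shScr libraries for PITX1, FOXF1 and OSR1. Of those of at least 5 CPM, 5 of 8 lay above the all-gene median and 2 below at day 3, with 2 past 2-fold. At day 7, 4 of 7 lay above and 0 below, with 1 past 2-fold. Among all genes 31.6% lay above and 34.4% below at day 3, and 29.8% and 31.9% at day 7. Past 2-fold were 4.14% of all genes at day 3 and 2.2% at day 7.

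Partners and regulators of HOX genes were present. Of 11 cofactors 9 were at 1 CPM or more in all libraries, with TGIF1 at 29.4 to 39.8, MEIS2 at 20.8 to 24.2 and MEIS3 at 21.2 to 25.1 CPM. In shAPC against shScr MEIS3 and TGIF1 lay below the all-gene median at day 3 and TGIF1 at day 7, while MEIS2 lay above it at day 7. All 27 Polycomb genes were at 1 CPM or more in every library, led by PHC2 (45.6 to 76.0 CPM), CBX6 (44.99 to 49.1) and PHF19 (34.95 to 49.1). Of the Polycomb genes tested 8 of 24 lay above and 6 below at day 3, with 2 past 2-fold, and 6 of 23 above and 4 below at day 7, with 0 past 2-fold. The 2 past 2-fold were JARID2 (2.55-fold) and CBX8 (2.64-fold), both higher in shAPC. The 15 trithorax genes and H3K27 demethylases were also all present, led by DPY30 (52.2 to 68.8 CPM), KMT2A (26.3 to 33.1) and WDR5 (16.1 to 23.2). Of 14 tested, 2 lay above and 3 below at day 3 and 5 above and 2 below at day 7. The 2 at day 3, KDM6B (2.31-fold) and DOT1L (2.23-fold), were past 2-fold there and none of the 14 was at day 7. JARID2, CBX8, KDM6B and DOT1L were named after their values had been seen. Over all genes 31.6% lay above and 34.4% below at day 3, and 29.8% and 31.9% at day 7, with 4.14% and 2.2% past 2-fold.

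Retinoic acid is a known inducer of anterior HOX genes. Of 17 genes of its pathway 8 were at 1 CPM or more in all libraries, led by the receptors RXRA (16.9 to 20.0 CPM), RXRB (10.0 to 22.5) and RARG (8.71 to 14.8). RXRB was higher in shAPC by log2 ratios of 0.94 (0.78 to 1.11) and 0.58 (0.37 to 0.80). RXRA stood at 19.4, 18.3, 16.9 and 20.0 CPM and RARG at 14.8, 14.4, 8.71 and 9.35 CPM. Both RXRA and RARG lay below the all-gene median at day 3, and RXRA lay above it at day 7. At day 3, 2 of the 5 tested lay above the all-gene median and 2 below, and at day 7, 4 of 6 above and 0 below, beside the same shares of all genes. CRABP2, a carrier of retinoic acid named after its values were seen, was past 2-fold at day 7, at 7.66 CPM in shAPC against 2.08, and stood at 4.61 against 1.61 CPM at day 3. Genes that flank the clusters, which are no HOX genes, gave 1 of 7 above and 4 below at day 3. They gave 4 above and 3 below at day 7, with 0 past 2-fold at either day. The all-gene shares were 31.6% above and 34.4% below at day 3, and 29.8% and 31.9% at day 7, with 4.14% and 2.2% past 2-fold. The highest of them were HNRNPA1 at 392 to 485 CPM, CBX5 at 48.2 to 63.9 CPM and SMUG1 at 32.0 to 39.5 CPM.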

How the data were processed

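The authors aligned reads to GRCh38 with STAR and deposited, per library, a matrix of raw UMI counts written by Cell Ranger (per the file headers 3.0.2 for shScr and 3.0.0 for shAPC). The sources differ on the virus (retroviral or lentiviral) and on the kit (v2 or V3). The study's ComBat, imputation and clustering were not applied, and doublets were neither called nor removed.

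Counts were summed over barcodes of at least 200 genes, 500 UMIs and under 5% mitochondrial UMIs, and scaled to CPM by their total. Ratios used genes of at least 5 CPM in 1 of both libraries; the 2-fold limit was read on CPM + 1. Intervals are exact 95% intervals and cover counting error only. The ratio intervals were run on counts simulated from a Poisson law, which they assume. That simulation held no cells, so it cannot tell how the intervals hold for UMIs clustered in cells. Cells were thinned with a fixed seed. Gene positions came from GENCODE and promoters from RefSeq. Python 3.11.15, numpy 2.4.6, scipy 1.17.1, pandas 2.3.3, R 4.3.3, edgeR 4.0.16 (TMM factors) and DESeq2 1.42.0 (size factors) were used.

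Members, gene lists and tests were chosen with earlier results of these data known. Every HOX gene of at least 5 CPM in 1 library is named with its 4 levels, and the rest by counts and range. From each other list the 3 highest genes are named, and at most 3 past 2-fold in the same direction at both days, of which there were none. Of genes past 2-fold at a single day, JARID2, CBX8, KDM6B, DOT1L and CRABP2 were named outside this rule, after their values had been seen. Alternatives were other barcode filters, scalings, limits, pseudocounts and thinning depths. A planned comparison of HOX protein sequences was not run. Some single genes are counted in the sums but not reported here by name, nor plotted.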

Additional observations from a re-analysis of the deposited data

Results flagged for a closer look

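HOXB7 and HOXB9 had counting intervals on opposite sides of the all-gene median under the same contrast in different settings. The log2 shAPC/shScr ratio of HOXB7 relative to that median was -0.18 at day 3 and 0.14 at day 7. That of HOXB9 was 3.36 at day 3 and -1.46 at day 7. Between day 7 and day 3 the relative log2 ratio of HOXB9 was 2.46 in shScr and -2.35 in shAPC, from the same 4 libraries. With 1 library per group these differences were not tested.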

How the results depend on the processing

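Each group holds 1 library, so no replicate could be left out, and the labels give no replicate numbers to pair. A model with additive terms for shRNA and day, which takes the day as a block and leaves 1 residual degree of freedom, was not fitted. Where a value changed with a setting, the cause was not tested beyond what the setting itself removes. Of the alternatives for summed levels, counts, correlations and shares, 133 values kept their direction and size, 43 moved and 4 changed sign. Of those for single genes, 568 kept them, 35 moved and 9 changed sign. The number of HOX genes at 1 CPM or more in all libraries stayed between 18 and 21 under other barcode sets and scalings.

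The log2 ratio of summed HOX UMIs between shAPC and shScr at day 3 became 0.0437 with TMM, 0.0605 with DESeq2 size factors, 0.31 with totals without mitochondrial and ribosomal protein genes and 0.33 as a mean over cells. At day 7 it became 0.34 with totals without those genes. Between the days it became 0.0168 in shScr with TMM. In shAPC it changed sign, to 0.24 with TMM, 0.24 with DESeq2 size factors, 0.11 with totals without those genes and 0.0133 as a mean over cells.

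The count of 0 past 2-fold became 1 at day 3 without cells of high ATF3 (HOXA4) and 1 as a mean over cells, with a minimum of 1 CPM or with no minimum (HOXB9). At day 7 it became 2 with totals without those genes or with a pseudocount of 0.1 CPM (HOXA4 and HOXB3), and 3 as a mean over cells (HOXA4, HOXB3 and HOXB5). Between the days in shAPC it became 1 as a mean over cells, with a minimum of 1 CPM or with none (HOXB9). The count of intervals above the all-gene median, whose alternatives were chosen after the data had been seen, like those without high-ATF3 cells or shared barcodes, became 8 of 16 at day 3 without high-ATF3 cells, beside 28.4% of all genes. With a minimum of 20 CPM, which only 3 HOX genes passed, it was 1 of 3 at day 3, 3 of 3 at day 7, 0 of 3 between the days in shScr and 2 of 3 in shAPC, beside 37.2%, 36.5%, 36.8% and 38.3% of all genes. In shScr it was 5 of 15 with all barcodes, 5 of 15 with a mitochondrial limit of 10%, 5 of 14 as a mean over cells and 7 of 37 with no minimum, beside 30.5%, 30.4%, 37.1% and 15.6% of all genes. The lowest rho of the HOX profile became 0.959 without high-ATF3 cells and 0.873 as a mean over cells.

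The share of cells with a HOX UMI depended on depth. For shScr and shAPC at day 3 and then at day 7 it was 28.9%, 35.8%, 32.3% and 37.1% at 2000 UMIs, 57.97%, 67.4%, 59.9% and 64.6% at 5000 UMIs, 97.2%, 97.7%, 97.1% and 98.5% at 20000 UMIs and 76.8%, 81.7%, 47.5% and 73.8% without thinning.

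Relative to the all-gene median, HOXB9 at day 7 changed sign to 0.38 without high-ATF3 cells and to 1.93 as a mean over cells, which gives shallow cells the weight of deep ones. The same mean changed HOXA7 at day 3 to 0.0299, and at day 7 HOXA9 to -0.0523, HOXA11 to -0.15, HOXB7 to -0.0111 and HOXC10 to -0.0655. Between the days in shScr it changed HOXC6 to -0.31 and HOXC8 to -0.26.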
